A study of Homo sapiens with 12 samples.

Results

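CAV1, GSN, DPYSL3, CDC42 and CD44 are genes of the cell surface and cytoskeleton linked to cell movement, and they are 5 of the 770 genes counted here in HCT-116 cells, an established human colorectal carcinoma line. They were chosen by name, after their changes in these same tables were known, so their values are a description and support nothing beyond themselves. The cells were grown for 24 h with heteronemin, a sesterterpenoid of marine sponges, with tetrac (tetraiodothyroacetic acid, a deaminated analogue of thyroxine), with heteronemin plus tetrac (called the combination here), or as control, with no further label. Each group had 3 samples by the labels, and neither doses nor the vehicle of the controls are given in these sources. RNA was counted on the NanoString nCounter PanCancer Progression panel, which counts fluorescent barcodes on probes bound to single transcripts. The values are the authors' group means of normalized counts, so no spread between samples can be given, and the labels do not say whether the samples of a group were separate cultures.

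Cell movement runs on actin. Caveolin-1 coats caveolae, small pits of the plasma membrane, and takes part in their signalling and in the turnover of adhesions. CDC42 is a small GTPase that sets cell polarity and starts filopodia, gelsolin (GSN) severs and caps actin filaments in response to calcium, and DPYSL3 encodes a collapsin response mediator protein that binds cytoskeletal proteins in growing neurites. CD44 is the main receptor for hyaluronan; it is tied to actin by the ERM proteins and is widely used as a marker of stem-like cells in colorectal tumours.

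The tables tie each gene to 1 RefSeq transcript: NM_001753.3 for CAV1, NM_000177.4 for GSN, NM_001387.2 for DPYSL3, NM_001039802.1 for CDC42 and NM_001001392.1 for CD44. These genes make several transcripts each, and a single count per gene does not separate them. The upstream sequences of CAV1 and GSN, the genes with the lowest treated levels relative to control, and of CD44, the one whose deposited means differed most between the combination and heteronemin, are shown from RefSeq (GRCh38.p14). Each is the 250 bases before an annotated start, 5′ to 3′ on the plus strand, and capitals mark GC boxes (GGGCGG on either strand). The windows are chr7:116524759-116525008 for CAV1, chr9:121201233-121201482 for GSN and chr11:35138921-35139170 for CD44, and where a gene has several starts the first listed is given.
CAV1: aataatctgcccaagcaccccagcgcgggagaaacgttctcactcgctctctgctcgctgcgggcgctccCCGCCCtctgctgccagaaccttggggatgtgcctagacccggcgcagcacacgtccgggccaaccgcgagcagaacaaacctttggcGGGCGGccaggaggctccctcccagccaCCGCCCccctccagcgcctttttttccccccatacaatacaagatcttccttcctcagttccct
GSN: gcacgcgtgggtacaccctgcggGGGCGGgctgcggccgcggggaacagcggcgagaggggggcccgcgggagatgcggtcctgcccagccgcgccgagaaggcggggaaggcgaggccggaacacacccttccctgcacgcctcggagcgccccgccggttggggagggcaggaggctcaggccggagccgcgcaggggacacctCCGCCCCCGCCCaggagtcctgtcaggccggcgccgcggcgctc
CD44: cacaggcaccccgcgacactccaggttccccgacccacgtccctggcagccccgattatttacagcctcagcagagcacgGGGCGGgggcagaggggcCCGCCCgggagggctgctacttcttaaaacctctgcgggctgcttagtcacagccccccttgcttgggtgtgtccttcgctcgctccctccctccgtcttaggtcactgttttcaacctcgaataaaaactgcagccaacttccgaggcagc
The CAV1 window held 3 GC boxes, that of GSN 3 and that of CD44 2. Of the 6 GSN windows only 4 held a GC box, 1 of them with 7. Which start gave the counted RNA is not known. Over all 13 annotated windows of the 5 genes, 10 held at least 1 GC box, against 42.6% of the 35116 windows in the reference table. The share of G and C was 58% in the median window of the reference table. In the windows of the 5 genes it ran up to 78.8%, and only GSN windows at 47.6% and 53.2% lay below that median. The part of base content in the GC box count was not tested. GSN alone has 6 of the 13 windows, and windows of 1 gene can overlap, as some of CAV1 and of GSN do, so these are not independent. The letters of an AP-1 site (TGANTCA, its own reverse complement) were in 0 of the 13 windows and in 6.57% of all windows, and a CArG box, the element bound by serum response factor, was in 0 of the 13 and in 1.16% of all. Such matches describe letters in a window of this length and say nothing about binding.

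The panel as a whole sets the scale for the 5 genes. The authors' means summed to 280484 with heteronemin, 306898 with tetrac and 297671 with both agents, against 333810 in control; the raw depth is unknown. The lowest value of any mean was 33, taken here as a floor, and none of the 5 genes was at it in any group. The ratio of a treated mean to control depended on a gene's level: for the 84 genes whose means averaged at least 800 across groups, the median log2 ratio was -0.39 with heteronemin, -0.16 with tetrac and -0.25 with both. For the 76 genes averaging from 400 to under 800, CAV1 and GSN among them, it was -0.32, -0.14 and -0.21 in that order. For the 196 genes averaging from 100 to under 400 it was -0.06, -0.05 and -0.06, and for the 414 genes averaging under 100 it was 0.65, 0.30 and 0.33. Each gene is therefore also set against the median of the 50 other genes nearest to it in level. Of 10 epithelial markers, 7 were measured; EPCAM, an adhesion molecule of epithelial cells, had means of 1403 (heteronemin), 1581 (tetrac) and 1520 (combination), against 1814 in control. The markers went both ways: their median log2 ratio was 0.04 with heteronemin, -0.10 with tetrac and 0.03 with both, and 1 was called lower and 2 higher after heteronemin, with 2 higher after the combination. In the panel 15.9% of genes were called lower and 11.2% higher after heteronemin, and 8.16% higher after the combination. Nothing is read from counts this small. KRT7, a keratin near the floor in control, had log2 ratios of 1.30 after heteronemin and 0.83 after the combination, both called. Against genes of like level KRT7 lay only 0.08 and 0.27 higher in that order. The other called markers lay farther from such genes. After heteronemin CDH1, called lower, lay 0.21 below them and CLDN3, called higher, 0.37 above. After the combination CLDN7, called higher, lay 0.63 above them. Of the uncalled markers, CLDN4 and KRT19 lay 0.41 and 0.29 above such genes after heteronemin, and EPCAM 0.004 below. Of 14 listed markers for blood, stromal and endothelial cells, 8 were measured, with control means from 33 to 35.6 and 5 of them at the floor. Their summed means were 469 with heteronemin, 341 with tetrac and 385 with both, against 267 in control, and their part in the results was not tested. Against genes of like level, which near the floor also had higher ratios, the 8 markers lay between -0.06 and 0.08 after heteronemin. They lay between -0.17 and 0.16 after tetrac and between -0.01 and 0.56 after the combination, with CD34 highest in both. CD34 was also the 1 marker of the 8 called, higher after heteronemin, where 11.2% of the panel was called higher.

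CAV1 had a mean of 514 normalized counts with heteronemin, 882 with tetrac and 549 with both, against 1048 in control. The heteronemin and combination means lay close together, at 49.0% and 52.4% of control, and the tetrac mean lay at 84.1%. The log2 ratios to control were -1.03 for heteronemin, -0.25 for tetrac and -0.93 for the combination. In the authors' deposited table, the p-values for CAV1 were 0.02, 0.34 and 0.01 in that order. After heteronemin it was the fifth lowest ratio of the panel and after the combination the seventh lowest. None of the 50 genes nearest in level had a lower ratio in either of these comparisons, and CAV1 lay 0.70 and 0.74 below their median on the log2 scale. After tetrac it lay 0.11 below that median. In RNA from whole cultures, fewer cells with the transcript and less of it per cell cannot be told apart.

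GSN had a mean of 340.5 with heteronemin, 525 with tetrac and 300.2 with both, against 570.3 in control. Here the combination gave the lowest mean, at 52.6% of control, below the 59.7% after heteronemin; tetrac gave 92.1%. The log2 ratios were -0.74, -0.12 and -0.93 for heteronemin, tetrac and the combination. In the authors' deposited table, the p for GSN was printed as 0 for heteronemin and for the combination, which stands for any p below 0.005, and as 0.39 for tetrac. GSN lay 0.52 below genes of like level after heteronemin and 0.79 below them after the combination. After tetrac 26 of its 50 neighbours in level had a lower ratio, so GSN sat at their middle.

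DPYSL3 had a mean of 218.3 with heteronemin, 274 with tetrac and 217.6 with both, against 306 in control. The heteronemin and combination means were 71.2% and 71.0% of control and differed by less than 1 count. The log2 ratios were -0.49, -0.16 and -0.49 for heteronemin, tetrac and the combination. DPYSL3 is the 1 gene of the 5 with a p under 0.05 after tetrac: the authors' deposited table gives p = 0.03 there, and a p printed as 0 for each of the other comparisons. Its tetrac mean was 89.3% of control, nearer to control than the tetrac mean of CAV1, whose p did not pass. Set against genes of like level, DPYSL3 lay 0.38 lower with heteronemin, 0.07 lower with tetrac and 0.41 lower with both.

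CDC42 had a mean of 1996 with heteronemin, 2374 with tetrac and 2107 with both, against 2671 in control. These are 74.7%, 88.9% and 78.9% of control, or log2 ratios of -0.42, -0.17 and -0.34. In the authors' deposited table the p for CDC42 was 0.01 for heteronemin, 0.32 for tetrac and printed as 0 for the combination. The medians of its 50 neighbours in level were -0.41, -0.16 and -0.30, and CDC42 lay within 0.05 of them in all 3 comparisons. Between 22 and 24 of the 50 neighbours had a lower ratio, depending on the comparison.

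CD44 had a mean of 1550.1 with heteronemin, 1921 with tetrac and 1832 with both, against 2183 in control. The combination mean was close to that of tetrac, at 83.9% and 88.0% of control, and the heteronemin mean was lower, at 71.0%. The log2 ratios were -0.49, -0.18 and -0.25 for heteronemin, tetrac and the combination. In the authors' deposited table, p for CD44 was printed as 0.05 for heteronemin, which does not pass a threshold of under 0.05, 0.33 for tetrac and 0.04 for the combination. As printed, CD44 thus passed after the combination, where its mean was nearer to control than after heteronemin. A p printed as 0.05 can stand for one slightly under 0.05, so this difference in calls may be only rounding. It lay 0.09 below genes of like level after heteronemin and 0.02 below after tetrac, but 0.04 above them after the combination.

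**Figure D1:**
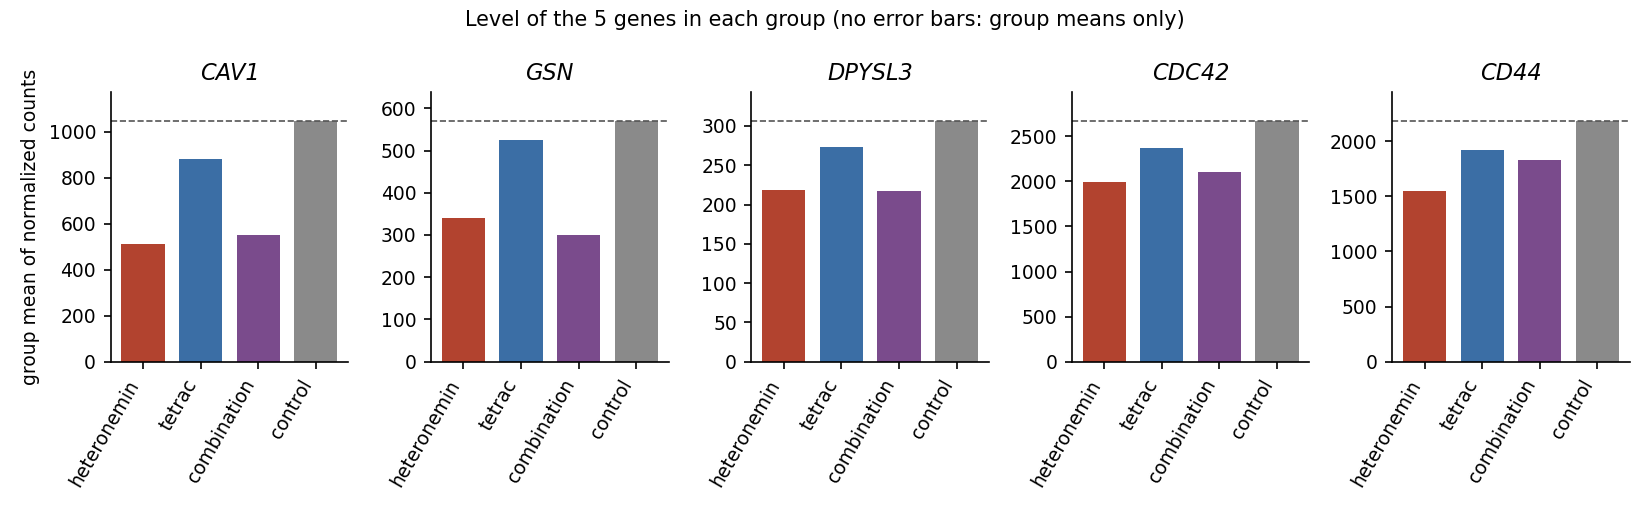
Group means of normalized counts (vertical axes, each from 0) of the 5 genes in the heteronemin, tetrac, combination and control groups; the dashed line is the control mean, and no error bars can be drawn from group means. CAV1 and GSN stood lowest relative to control, CAV1 at 49.0% of it after heteronemin and GSN at 52.6% after the combination, and CD44 alone had a combination mean nearer to tetrac than to heteronemin.

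**Figure D2:**
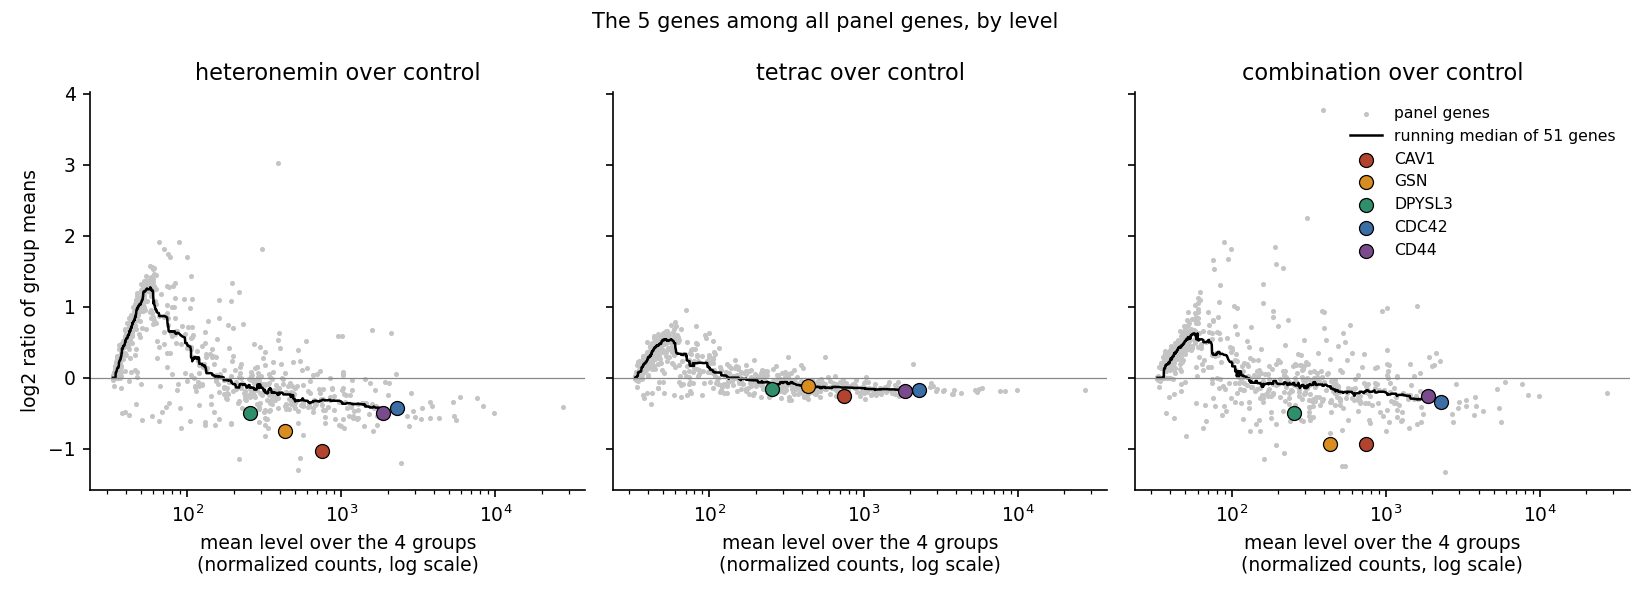
The log2 ratio of each treated mean to control (vertical axes) against mean level over the 4 groups (log axes) for all 770 panel genes in grey, with a running median of 51 genes and the 5 genes in colour. After heteronemin and after the combination CAV1, GSN and DPYSL3 lie below the running median, while CDC42 and CD44 lie on or near it.

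Calls rest on the authors' p-value, unadjusted, at a threshold of under 0.05. After heteronemin 4 of the 5 genes were called, all lower (CAV1, GSN, DPYSL3 and CDC42), where 15.9% of the 704 panel genes with a p were called lower, or 28.9% of the 356 genes averaging at least 100 across groups, to which all 5 belong. After tetrac 1 of 5 was called, DPYSL3, beside 0.980% of 714 genes called lower. After the combination all 5 were called lower, beside 14.1% of 686 genes, or 25.0% of those averaging at least 100. Because the genes were chosen with these calls known, nothing is read from the counts. The 3 comparisons share the control samples. The median log2 ratio of the 5 genes was -0.49 with heteronemin, -0.17 with tetrac and -0.49 with both, beside 0.11, 0.02 and 0.09 for all panel genes and -0.19, -0.11 and -0.15 for genes averaging at least 100. After Benjamini-Hochberg adjustment of the p-values as printed, GSN and DPYSL3 stayed under 0.05 for heteronemin, and GSN, DPYSL3 and CDC42 for the combination, all at a printed p of 0. With each p taken as large as its rounding permits, 0 of the 5 passed in any comparison.

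The combination was next set against each single agent, as ratios of the deposited means with no test. Against heteronemin, CD44 was 1.18-fold higher under the combination (log2 difference 0.24), CAV1 1.07-fold and CDC42 1.06-fold higher. DPYSL3 had a log2 difference of -0.005, and GSN had a lower mean, at -0.18. None of the 5 reached 1.2-fold in either direction, a size that 36.9% of the panel and 16.3% of genes averaging at least 100 reached. Less the median of genes of like level, CAV1 and CDC42 turned to -0.008 and -0.027, CD44 lay at 0.13, and GSN, at -0.28, was the farthest from 0 and past 1.2-fold. The panel share past 1.2-fold after that subtraction was not counted, so how usual the GSN value is cannot be said. Against tetrac, 3 of the 5 were lower under the combination by 1.2-fold or more: GSN by 1.75-fold, CAV1 by 1.61-fold and DPYSL3 by 1.26-fold. In the panel 12.6% of genes were that much lower, or 21.6% of those averaging at least 100. CDC42 was 1.13-fold and CD44 1.05-fold lower than after tetrac, and CD44 turned to 0.05 on the log2 scale less genes of like level.

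If the log2 changes of heteronemin and tetrac simply added, CAV1 would have a combination mean of 433, against the 549 measured, and CD44 one of 1364, against 1832. These 2 genes lay 0.35 and 0.43 above the sum on the log2 scale. CDC42 lay 0.25 above it and DPYSL3 0.16 above, while GSN, with 314 under the sum and 300.2 measured, lay at -0.06. A departure of 1.2-fold or more above the sum was seen in 34.6% of panel genes averaging at least 100, and in 17.4% of all. Less the median of genes of like level, the departures of CAV1 and CD44 were 0.12 and 0.14, and that of GSN was -0.32, the 1 value of the 5 then past 1.2-fold. The panel shares are for the deposited means and for departures above the sum. None was counted after the subtraction or below the sum, so how usual the GSN value is cannot be said. The control mean enters this quantity once and each single agent once with the opposite sign, and no error can be given for it.

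**Figure D3:**
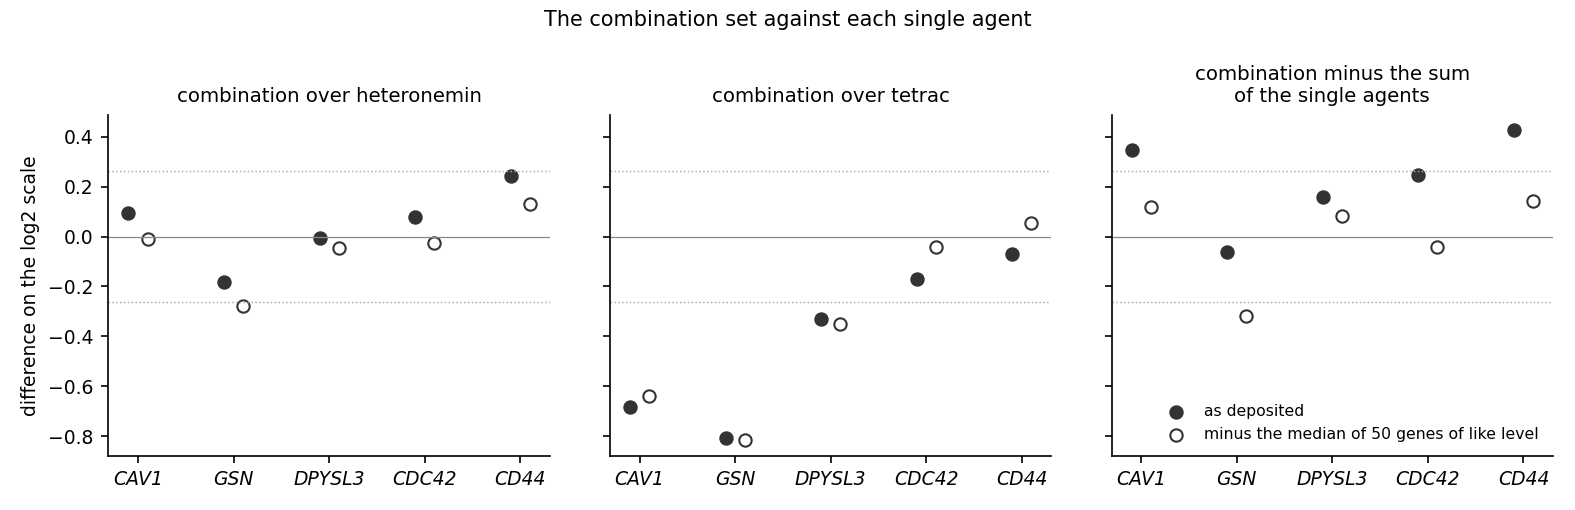
Differences on the log2 scale (vertical axis) between the combination and heteronemin, the combination and tetrac, and the combination and the sum of the single agents' changes, for the 5 genes. Filled points are the deposited means and open points are less the median of 50 genes of like level; dotted lines mark 1.2-fold. CD44 and CAV1 lie above the sum at 0.43 and 0.35 as deposited and at 0.14 and 0.12 after that subtraction, and GSN lies at -0.32 after it.

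Other genes of the same machinery come from 5 lists for caveolae, actin filaments, collapsin response and microtubules, CD44 and hyaluronan, and focal adhesions, in which 23 of 97 symbols were measured. Of the 19 that are not among the 5 genes, 1 was called lower and 4 higher after heteronemin, 0 in either direction after tetrac, where 1.26% of the panel was called, and 1 lower and 2 higher after the combination. Their median log2 ratios were 0.17, 0.00 and 0.06. In the panel 15.9% of genes were called lower and 11.2% higher after heteronemin, and 14.1% lower and 8.16% higher after the combination. These shares are over genes with a p, which 22 of the 23 list genes had after heteronemin and 21 after the combination. Of the genes called higher, PTRF, HAS1 and SPP1 had control means of 39.6, 33 and 36.4, at or near the floor. Panel genes had higher ratios there in general. PTK2B alone of those called higher averaged at least 100, and it was called only after heteronemin. Nothing is read from counts this small.

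Of the caveola list the panel measured CAV1 and PTRF, now CAVIN1, which encodes the cavin that coats caveolae together with caveolin. PTRF had means of 74.5 with heteronemin, 49.6 with tetrac and 71.8 with both, against 39.6 in control. It rose after heteronemin at a log2 ratio of 0.91, with p printed as 0 in the authors' deposited table. At the combination its ratio was 0.86 and p 0.07. Its control mean was near the floor, where panel genes had higher ratios in general, and PTRF lay 0.35 below genes of like level after heteronemin and 0.25 above them after the combination.

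Among 7 measured actin filament genes, GSN and CALD1 were called lower after heteronemin and after the combination, and 0 were called higher. GSN is itself among the 5 chosen genes, and 15.9% and 14.1% of the panel were called lower in these comparisons. CALD1, which encodes caldesmon, an actin- and tropomyosin-binding protein, had means of 653 with heteronemin, 872 with tetrac and 636 with both, against 961 in control. It fell after heteronemin (log2 ratio -0.56) and after the combination (-0.59), and lay 0.26 and 0.42 below genes of like level, less far than GSN. TPM2, a tropomyosin gene, had log2 ratios of -0.51, -0.18 and -0.30 and was not called. The smooth muscle genes ACTG2, MYH11 and CNN1 were at the floor in control, and MYLK was at 46.8.

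Of 7 genes of CD44 and hyaluronan, 2 were called higher after heteronemin and after the combination alike: SPP1, which encodes osteopontin, a secreted ligand of CD44 and integrins, and HAS1, a hyaluronan synthase. In the panel 11.2% and 8.16% of genes were called higher in these comparisons. SPP1 had a mean of 137 after heteronemin and after the combination and of 44.9 after tetrac, against 36.4 in control. HAS1 had 70.6 with heteronemin, 37.6 with tetrac and 45.2 with both, against the floor of 33 in control. SPP1 lay 1.30 and 1.59 above genes of like level after heteronemin and after the combination, and HAS1 0.21 and 0.02 above them. VCAN, which encodes the hyaluronan-binding proteoglycan versican, had log2 ratios of -0.66, -0.18 and -0.75 with p of 0.06, 0.50 and 0.05 in the authors' deposited table, none of them a call. NF2, which encodes merlin, a relative of the ERM proteins that binds CD44, had ratios of -0.09, 0.00 and -0.09. Of 6 focal adhesion genes, PTK2B, a kinase related to the focal adhesion kinase, rose after heteronemin at a mean of 161, against 115 in control, and 0 were called lower. In the panel 11.2% of genes were called higher and 15.9% lower after heteronemin. In that list PTK2, the focal adhesion kinase, had a log2 ratio of -0.32 after heteronemin and lay 0.008 above genes of like level. ILK, the integrin-linked kinase, had one of -0.57 and lay 0.40 below such genes. In the authors' deposited table their p-values were 0.16 and 0.07, so neither was called. DPYSL3 was the 1 measured gene of 14 listed for collapsin response and microtubules.

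**Figure D4:**
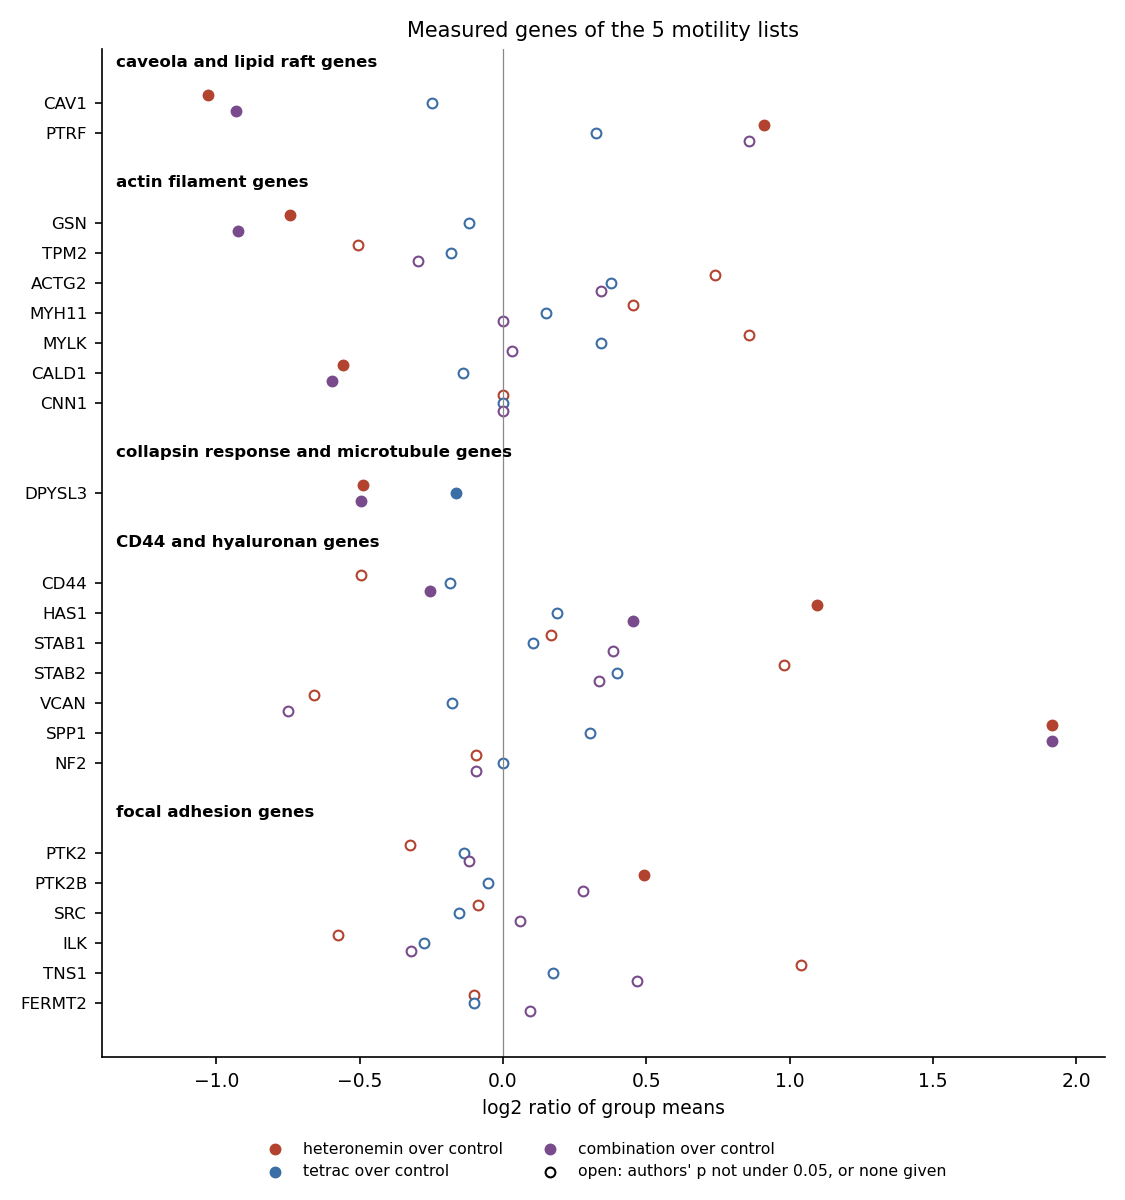
Log2 ratios of the treated means to control (horizontal axis) for the 23 measured genes of the 5 lists, by treatment; filled points had an authors' p under 0.05 and open points did not, or had none. Members lie on both sides of 0, with CAV1 and GSN at the left edge and SPP1, at 1.91 after heteronemin, at the right.

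The genes whose pattern over the 4 groups was most like each of the 5 were found among the other 355 genes averaging at least 100, by the root mean square difference of log2 means after centring each gene on its own mean. These are descriptions over 4 group means, and genes measured in the same samples share whatever moved those samples. CAV1 was closest to CTSH, a lysosomal cysteine protease, at 0.05, and next to GSN at 0.12. CTSH had means of 142 with heteronemin, 260.4 with tetrac and 152 with both, against 316 in control, the same order of groups as CAV1. For GSN the closest were RGCC, a regulator of the cell cycle, at 0.06 and KIAA1462, now JCAD, a protein of endothelial junctions, at 0.08. Only 1 candidate came within 0.1 of CAV1 and 4 within 0.1 of GSN.

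CDC42, CD44 and DPYSL3 had many genes as close. Within 0.1 lay 118 candidates for CDC42, 97 for CD44 and 75 for DPYSL3. The closest to CDC42 were MET, the receptor of hepatocyte growth factor, and SNRPF, a core protein of the spliceosome, each at 0.01. The closest to CD44 were AKAP12, a scaffold for protein kinase A, at 0.009 and TPM2 at 0.02. For DPYSL3 they were CHD4, a chromatin remodeller, and the desmosomal cadherin DSC2, each at 0.02. Within the 5, CD44 and CDC42 were closest at 0.06 and CAV1 and CD44 farthest apart at 0.29.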

How the data were processed

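RNA of 12 HCT-116 samples, 3 per group by the labels, was counted on the nCounter PanCancer Progression panel. Per the labels' design text, nSolver 4.0 served the authors for normalizing raw counts, with a positive control factor per sample and a biological normalization. The authors deposited a signal, the group mean of normalized counts, in 3 tables of 770 genes, 1 per treatment, with an identical control column. The authors deposited a score, a signed fold change, equal to the quotient of their means to within 0.00511. A p-value per gene was also deposited by the authors to 2 decimals, empty where both means were at 33; its test, the kind of mean and the background threshold are not stated there. Depth is unknown, and the p-values reflect a spread between samples that may be only technical.

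From these tables log2 ratios, Benjamini-Hochberg adjustment over each table, medians over the 50 neighbours in mean level, and list counts were computed with pandas 2.3.3 and numpy 2.4.6 under Python 3.11.15 (scipy 1.17.1 for tests on simulated data, matplotlib 3.10.9 for figures). A call is an unadjusted p under 0.05; comparisons between treatments had no test. Besides the 5 genes, the text names called genes of the lists, at most 4 per list and comparison, the 2 genes most like each of the 5, and uncalled list genes picked after their values were seen to show a list's range. The 5 genes, the lists and the tests were chosen with earlier results of these data known. Of the panel's symbols 755 were current in the RefSeq table (GRCh38.p14), all 5 genes included; upstream sequences came from RefSeq. The tables name no genome build. The call rule was tested on simulated data with an assumed spread and a t-test. Because the authors' test and the spread between samples are unknown, this says nothing about the deposited p-values. 1 planned gene list is not reported here.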

Additional observations from a re-analysis of the deposited data

How the results depend on the processing

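With a stricter unadjusted p under 0.01, and likewise with the Benjamini-Hochberg method applied to the p-values as printed, both of which kept only genes whose p was printed as 0, the panel calls were 41 with heteronemin, 0 with tetrac and 48 with both, against 191, 9 and 153. Of the 5 genes 2, 0 and 3 were then called lower, against 4, 1 and 5, and of the list genes 4, 0 and 4 were called, against 8, 1 and 7. With that method and each p as large as its rounding permits, all these counts were 0. Restricting to a mean level of 100 or more left the calls of the 5 genes as they were, gave 5 list genes after heteronemin and 5 after the combination, and gave 136, 8 and 127 panel calls. Less the median of genes of like level, the log2 ratio of CD44 under the combination turned to 0.042, 1 of the 5 genes (GSN) differed by 1.2-fold between the combination and heteronemin, against 0, and 1 departed from the sum of the single agents by 1.2-fold, against 2: GSN, below it at -0.32. No panel share was counted after that subtraction. With centring on the housekeeping genes the count of genes departing from the sum was 1 as well, but the gene was CD44, above the sum at 0.33, with CAV1 at 0.25. Centring on the housekeeping genes and subtracting the lowest value moved no single gene's log2 value by over 0.1. Centring subtracts 1 value from all genes of a comparison, so its shift is not a result for single genes. The housekeeping medians were -0.08 with heteronemin, -0.04 with tetrac and -0.02 with both. Centring on genes averaging at least 100 subtracted their medians of -0.19, -0.11 and -0.15. All 5 ratios to control thus moved by that same amount, over 0.1, in each of the 3 comparisons. No sign changed: CAV1 after heteronemin went to -0.84, GSN after tetrac to -0.01 and CD44 under the combination to -0.11. No paired analysis was possible because the tables hold group means, and for the same reason no replicate could be left out.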
